A study of Mus musculus with 2 samples.

Results

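The mouse carries 39 Hox genes in 4 clusters, and their accessible chromatin was examined in postnatal lung. The members were the protein-coding genes of the GENCODE M21 annotation named Hox with a letter from a to d and a number from 1 to 13. They make up 39 of 21938 protein-coding genes outside the mitochondrial chromosome, and the rule uses names and no measured value, though the set was taken up with earlier results of these data known. The letter is the cluster and the number is the paralog group, the position a gene shares with its relatives in the other clusters. In mm10 coordinates the Hoxa cluster lies on the minus strand at chr6:52155590-52260880, with 11 genes in 105291 bp. The Hoxb cluster lies on the plus strand at chr11:96194316-96368256, with 10 genes in 173941 bp. The Hoxc cluster holds 9 genes in 115750 bp at chr15:102921103-103036852, and the Hoxd cluster 9 genes in 96833 bp at chr2:74668310-74765142, both on the plus strand. Paralog groups 1 to 3 are called anterior here (8 genes), groups 4 to 8 central (15 genes) and groups 9 to 13 posterior (16 genes).

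Male B6CASTF1/J mice, a first-generation hybrid strain, gave lung at 14 days of age for DNase-seq, in which open DNA is cut by DNase I and the cut ends are sequenced. The 2 libraries form a single group with no treatment or genotype to compare. Replicate 2 is a pool of 3 males, the label of replicate 1 says male without a pool, and the donor record is the same, so the spread between them may be technical. Replicate 1 had 94786 peaks (accessible intervals) and 326313 footprints (short stretches protected from cutting inside open DNA), and replicate 2 had 77403 peaks and 252174 footprints. Read counts were not in the files used, which leaves depth unknown. Peak scores are the authors' own values, compared only by rank: the percentile of a peak is the share of its library's peaks that score no higher. The tissue label was checked against markers: 15 of 17 lung genes had a promoter peak in each library, beside 66.6% and 64.1% of all protein-coding genes, led by Abca3 and Hopx of the alveolar epithelium and Foxj1 of ciliated cells, against 1 of 7 heart genes (Tnni3). The club cell gene Scgb1a1 had none in either. Posterior-body markers had a peak at 4 of 12 genes in each library, with Tbx4 (also a lung gene) and Six2 among those open in both, and blood markers at 3 of 6 (Spi1, Cd68 and Cd3d). The part of blood cells in the Hox results was not tested.

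Hox genes encode homeodomain transcription factors that give cells their position along the body axis. Within a cluster they lie in the order in which they are used, low-numbered genes towards the head and high-numbered genes towards the tail, and all genes of a cluster are read in the same direction. Their proteins bind DNA with PBX and MEIS partners, Polycomb complexes keep unused Hox genes silent while Trithorax complexes keep used ones active, and CTCF sites divide the clusters into blocks. In mice, Hoxa5 is needed for normal lung development, and the lung mesenchyme uses mainly anterior and central genes.

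Fewer Hox promoters were accessible than is usual for a protein-coding gene, and none of them lay in the Hoxd cluster. A gene was called open in a library when a peak overlapped the window of 1 kb on each side of any of its annotated transcript starts. Replicate 1 had 18 of the 39 Hox genes open (46.2%) and replicate 2 had 11 (28.2%), against 66.6% and 64.1% of all protein-coding genes. All 11 genes open in replicate 2 were also open in replicate 1, so that 11 of 39 were open in both libraries, beside 63.6% of all genes. Among these 11 were Hoxa4, Hoxa5, Hoxa7, Hoxa10, Hoxb4, Hoxb5, Hoxc5, Hoxc6, Hoxc10 and Hoxc13. Another 7 (Hoxa2, Hoxa3, Hoxa6, Hoxb1, Hoxb2, Hoxb3 and Hoxb7) were open in replicate 1 only, and 21 were open in neither. In bulk tissue, a promoter open in few cells and one weakly open in many cannot be told apart.

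The clusters differed in how many genes were open. In the Hoxa cluster replicate 1 had 8 of 11 genes open and replicate 2 had 5. In the Hoxb cluster the counts were 6 and 2 of 10, and in the Hoxc cluster 4 of 9 in each library. The Hoxd cluster had no open gene among its 9 in either library. By position, 6 of 8 anterior genes were open in replicate 1 but only 1 in replicate 2. Of the 6, Hoxa3 was open through its outermost start, which lies between the central genes Hoxa6 and Hoxa7. Among 15 central genes 9 and 7 were open, and among 16 posterior genes 3 in each library, the same 3 (Hoxa10, Hoxc10 and Hoxc13). Paralog group 5 was the one group with all its genes open in both libraries, Hoxa5, Hoxb5 and Hoxc5. No gene of groups 8, 9, 11 or 12 was open in either library. The share open was thus higher for anterior than for central genes in replicate 1 (75% and 60%) and lower in replicate 2 (12.5% and 46.7%), so the order of the anterior and central groups rests on 1 library.

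**Figure D1:**
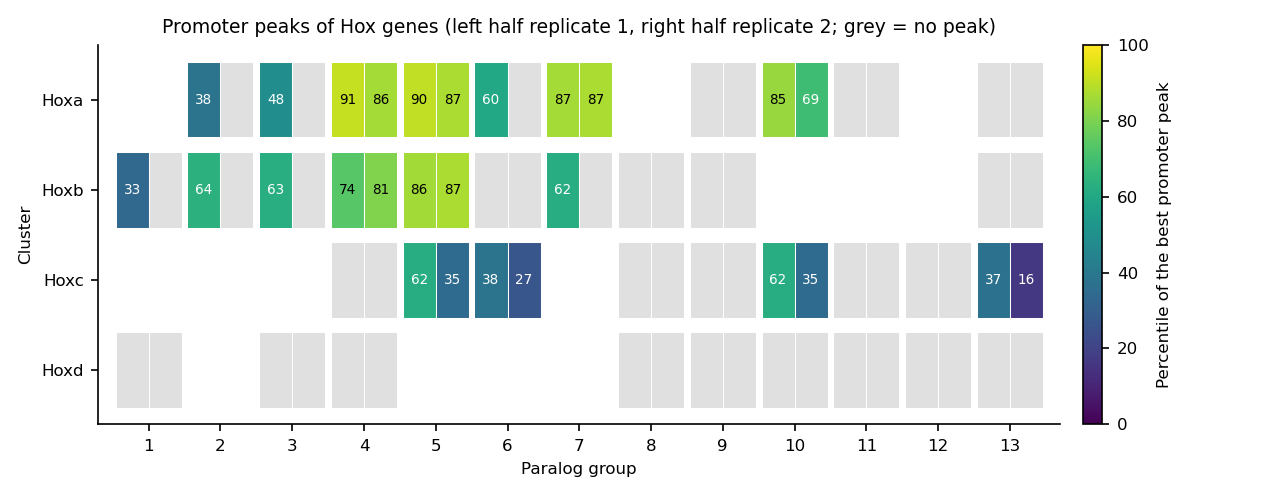
Percentile of the highest-scoring promoter peak of Hox genes, by cluster (rows) and paralog group (columns). Each cell is split into replicate 1 on the left and replicate 2 on the right, grey is no peak and blank is no gene or a gene not shown. The Hoxd row is grey throughout, and paralog group 5 is coloured in each cluster that has it.

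The highest-ranked Hox promoters of each library were in the Hoxa cluster. Hoxa4 had its peak at the 91.2nd percentile of replicate 1 and the 86.4th of replicate 2, over the same 200 bp at position −88 bp from its start. Hoxa5, whose loss disturbs lung development in mice, had a peak across its start at the 90.4th and 87.3rd percentiles. Hoxa7 had 2 peaks in each library, the higher across its outer start at the 86.7th and 87.4th percentiles. These 3 genes were alike in both libraries, each within 5 percentile points. Hoxa10, known for its part in the uterus and the posterior skeleton, had a single peak of 200 and 220 bp inside the gene at the 84.7th and 69.0th percentiles.

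Hoxb4 and Hoxb5 were the only Hoxb genes open in both libraries. Hoxb5, which acts in branching airways in mice, had a peak across its start at the 86.0th and 87.3rd percentiles in replicates 1 and 2. Hoxb4, known in blood stem cells, had a peak 294 bp downstream of its start at the 73.6th and 81.2nd percentiles. Both lay in the upper part of each list, and each percentile was higher in replicate 2 than in replicate 1.

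The 4 open Hoxc genes rested on weaker and less direct peaks. Hoxc10, a posterior gene of the lumbar region, had a peak at −116 and −96 bp, at the 62.2nd percentile of replicate 1 and the 34.7th of replicate 2. The same peak counts as the best one of Hoxc5, because an annotated Hoxc5 transcript starts beside Hoxc10. The peak at the other Hoxc5 start, at −15 and −19 bp, stood at the 41.1st and 18.1st percentiles. Hoxc6 was open through a peak 984 and 979 bp downstream of a start, just inside the window, at the 38.0th and 26.9th percentiles. Hoxc13, a hair and nail gene, shared a peak upstream of its start between the libraries, at −103 and −115 bp and the 25.7th and 16.03rd percentiles. A second Hoxc13 peak, at the 37.2nd percentile and 938 bp downstream, was in replicate 1 only. Each peak shared by the libraries ranked lower in replicate 2.

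The 7 genes open in replicate 1 only had middling peaks there. They ran from the 33.3rd percentile at Hoxb1 to the 63.9th at Hoxb2, with Hoxa2 at 38.0, Hoxa3 at 48.5, Hoxa6 at 60.1, Hoxb7 at 62.5 and Hoxb3 at 62.7. The Hoxb3 peak lay 996 bp from a start, at the edge of the window. At Hoxa3 the peak lay 36 bp downstream of the outermost start, between Hoxa6 and Hoxa7. The peaks of Hoxa2, Hoxb1 and Hoxb2 lay in coding exons of these genes, 511, 483 and 231 bp downstream of a start. Of the 7, 5 are anterior genes. Replicate 2 also had fewer peaks in all, and the part of that in the difference was not tested. Of all protein-coding genes open in replicate 1, 4.57% were not open in replicate 2, against 7 of 18 Hox genes (38.9%). Most genes open in replicate 1 had stronger peaks than these. Among genes with a best peak between the 33.3rd and 63.9th percentiles, 186 of 1571 (11.8%) were not open in replicate 2. For Hox genes in that range it was 7 of 11 (63.6%), though the range was set by these same 7 genes. In the longer deposited peak list of replicate 2, 5 of the 7 did have a peak, all but Hoxb1 and Hoxb3. The matching share over all genes was not computed.

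The 21 genes open in neither library were Hoxa9, Hoxa11, Hoxa13, Hoxb6, Hoxb8, Hoxb9, Hoxb13, Hoxc4, Hoxc8, Hoxc9, Hoxc11, Hoxc12 and all 9 Hoxd genes. They include 13 of the 16 posterior genes. The distance to the nearest peak varied widely among them. It was shortest in replicate 1 at Hoxd12, a limb gene, at −1733 bp, and −1810 bp in replicate 2. It was longest at Hoxd1, at −46960 and −46940 bp, followed by Hoxc12 at −14517 and −15769 bp. For Hoxa11, which acts with Hoxd11 in limb and kidney, it was 5155 and 5135 bp, and for Hoxd11 4078 and 4098 bp. For the digit genes it was −4470 and −4488 bp at Hoxd13 and 3582 bp in both libraries at Hoxa13. Most closed genes thus lay several kb from any peak. The longer peak lists split the 21 genes. In them, 9 had a peak in replicate 1, namely Hoxb6, Hoxb8, Hoxb9, Hoxd1, Hoxd3, Hoxd4, Hoxd8, Hoxd9 and Hoxd10, and 2 of these, Hoxb6 and Hoxd1, had one in replicate 2. Hoxb6 stood at the 70.9th and 70.4th percentiles of the longer lists and Hoxd1 at the 35.7th and 11.8th. The other 12, of which 10 are posterior genes, had neither a peak of the longer lists nor a footprint in their window in either library. Over all protein-coding genes, the longer list had 15501 open in replicate 1, against 14611 with the shorter list. In replicate 2 the counts were 14992 and 14072, all of 21938 genes. The share of all closed genes that had a peak in the longer list was not computed.

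Open Hox promoters scored below the usual open promoter. The median percentile of the best peak was 62.6 over the 18 Hox genes open in replicate 1 and 81.2 over the 11 in replicate 2, against 89.9 and 89.7 over all open genes. Over genes open in both libraries the medians were 83.0 and 81.2 for Hox genes, against 90.7 and 89.9 for all. In replicate 1, 2 of 18 Hox genes (Hoxa4 and Hoxa5) exceeded the median of all open genes, and in replicate 2 none of 11 did. The peaks also lay less often on the start itself. The best peak contained a transcript start at 6 of 18 and 4 of 11 open Hox genes (33.3% and 36.4%), against 71.4% and 72.1% of all open genes.

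The bases with a significant cut rate, which come from the same libraries as the peaks, also covered less of the Hox promoters than of other promoters. The FDR files list bases whose cut rate had a false discovery rate of 0.05 or below, and those at 0.001 or below were counted in each promoter window. They covered 4.06% of the pooled Hox promoter bases in replicate 1 and 2.62% in replicate 2, a mean of 3.34% ± 1.02 (SD, n = 2). Over all protein-coding genes they covered 13.6% and 11.6%, a mean of 12.6% ± 1.39 (SD, n = 2), so the gap exceeded the spread between the libraries. The Hox genes with any such base were the 18 and 11 open ones, so this is not separate support for the peak counts. By cluster the shares were 8.15% and 5.81% for Hoxa, 3.97% and 1.56% for Hoxb, 3.42% and 2.66% for Hoxc, and 0 in both libraries for Hoxd, with Hoxa highest and Hoxd lowest in each library. By position they were 5.24% and 2.02% for anterior, 5.08% and 3.90% for central, and 1.81% and 1.51% for posterior genes.

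Single genes spread widely around these shares. Hoxa5 had 22.2% and 22.7% of its window at the low FDR, Hoxb5 16.996% and 13.05%, and Hoxa4 15.99% and 14.8%. These 3 and Hoxb4 (11.7% and 11.2%) lay above the median gene of 10.8% and 8.69% in both libraries. Hoxc13, whose peaks ranked low, also did, with 14.3% and 9.95%. The 7 genes open in replicate 1 only had 0.100% at Hoxb3 to 14.0% at Hoxa2 in replicate 1 and 0 in replicate 2. The 21 genes open in neither library had no base at the low FDR in either. Hoxd8 and Hoxd9 had 13.2% and 12.2% of their windows listed at the weaker limit in replicate 1 and 0 in replicate 2. Hoxd1 was listed over 9.95% of its window in replicate 1 and 2.60% in replicate 2. At this limit no other Hoxd gene was listed in replicate 2.

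**Figure D2:**
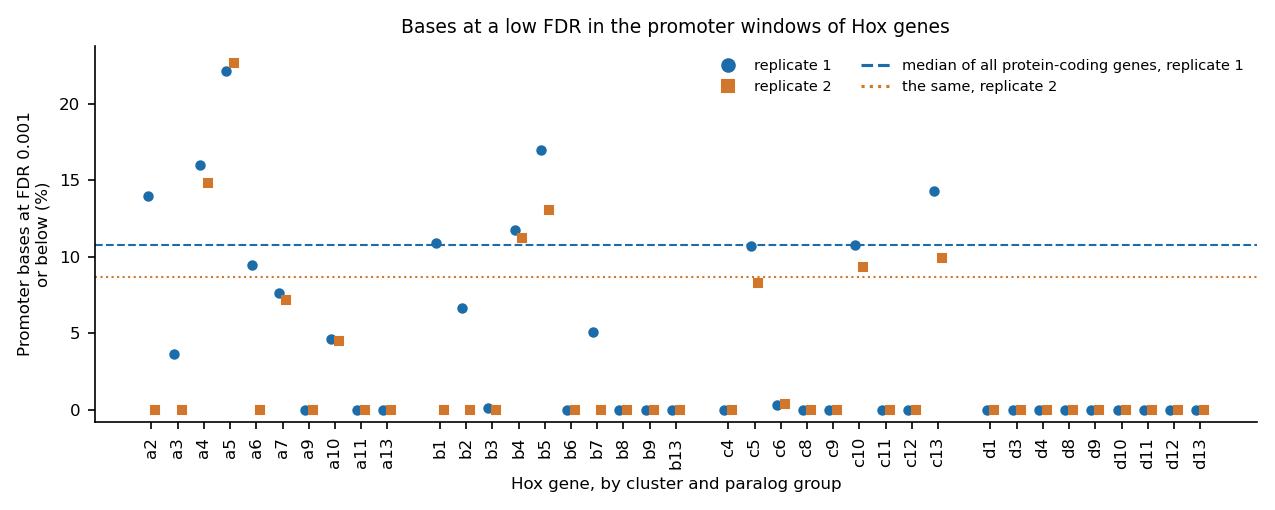
Share of promoter bases at an FDR of 0.001 or below for Hox genes, as circles for replicate 1 and squares for replicate 2; the dashed and dotted lines are the medians over all protein-coding genes, 10.8% and 8.69%. Among the genes drawn, Hoxa5 stands highest and all Hoxd genes lie at 0.

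Many Hox starts were rich in CpG, a dinucleotide common at broadly open promoters, and most of these were closed. A start was called CpG-rich when the 500 bp on each side had a CpG observed over expected ratio of at least 0.6 and a G+C share of at least 50%. This held for 24 of 39 Hox genes and 9740 of 21938 genes in all. Of the 24 CpG-rich Hox genes, 10 were open in replicate 1, 6 in replicate 2 and 6 in both, against 95.7%, 93.9% and 93.7% of all CpG-rich genes. The 21 Hox genes open in neither library had a median ratio of 0.72, against 0.64 for the 11 open in both. Hoxa13, Hoxd13 and Hoxc12 had ratios of 0.93, 0.91 and 0.89 and no peak.

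**Figure D3:**
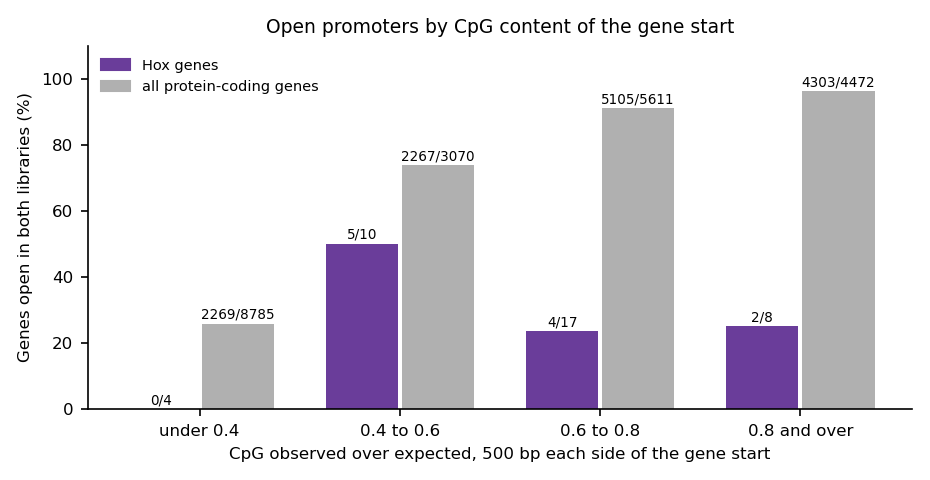
Share of genes open in both libraries by the CpG observed over expected ratio around the gene start, for Hox genes (left bar of each pair) and all protein-coding genes; the counts stand on the bars. At a ratio of 0.6 to 0.8, 4 of 17 Hox genes were open, against 5105 of 5611 genes in all.

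Peaks were densest inside the Hoxa and Hoxb clusters. The 4 clusters together held 55 peaks in replicate 1 and 34 in replicate 2, which is 11.2 and 6.91 per 100 kb, a mean of 9.05 ± 3.02 (SD, n = 2). The 100 kb on each side held 3.75 and 2.88 per 100 kb, a mean of 3.31 ± 0.62 (SD, n = 2), near the genome's 3.48 and 2.84. Hoxa had 20.9 and 15.2 peaks per 100 kb inside, against 4 and 3 in its flanks. Hoxb had 13.8 and 5.75 inside, against 5 and 4.5 in its flanks. Hoxc had 4.32 and 3.46 inside, against 2.5 and 1.5 in its flanks, and Hoxd 4.13 in each library, against 3.5 and 2.5. In all 4 clusters the interior stood above the flanks in each library, least so for Hoxd in replicate 1. Hoxb showed the largest gap between the libraries, 24 peaks in replicate 1 and 10 in replicate 2.

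**Figure D4:**
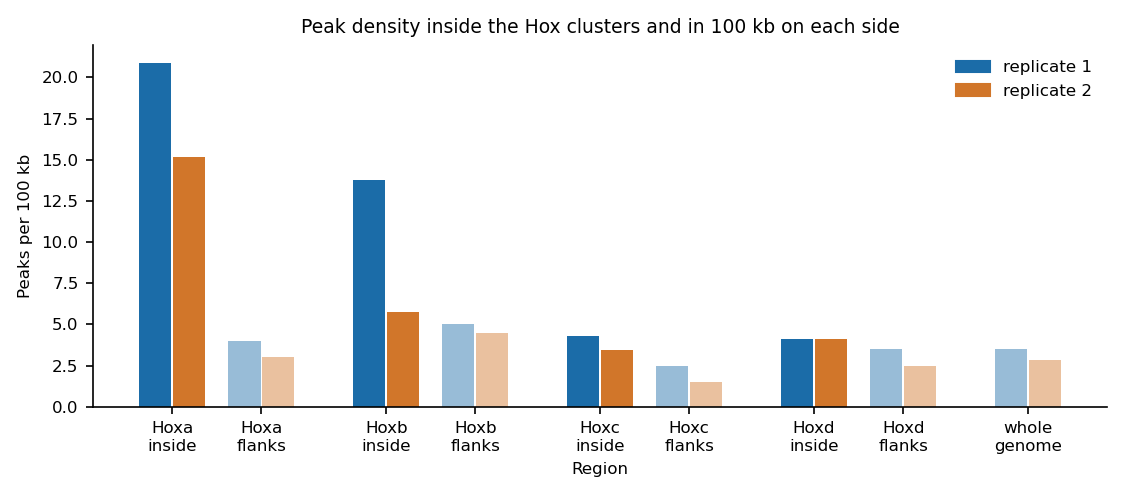
Peaks per 100 kb inside each Hox cluster (full colour), in 100 kb on each side of it and over the genome (pale), for replicate 1 (blue) and replicate 2 (orange). Hoxa inside reaches 20.9 and 15.2, against 4 and 3 in its flanks.

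Peaks of both libraries merged into 57 sites inside the clusters, of which 31 were shared, 23 were in replicate 1 only and 3 in replicate 2 only. Of the 31 shared sites, 12 lay in a Hox promoter window and 19 did not. In replicate 2 the longest stretch of Hoxb without a peak was 49.5 kb and held Hoxb1, Hoxb2 and Hoxb3 whole. Replicate 1 had 7 peaks in that stretch, at the 17.7th to 63.9th percentiles. In Hoxa the longest stretch was the same in both libraries, 18.5 kb over Hoxa9. In Hoxd it was 49.1 kb in each, between the Hoxd4 region and the far end of Hoxd1. Of the peaks inside the clusters 56.4% in replicate 1 and 91.2% in replicate 2 had a partner in the other library, against 73.6% and 89.8% of all peaks. A footprint lay in 87.3% and 100% of them, against 88.7% and 87.1% of all peaks.

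**Figure D5:**
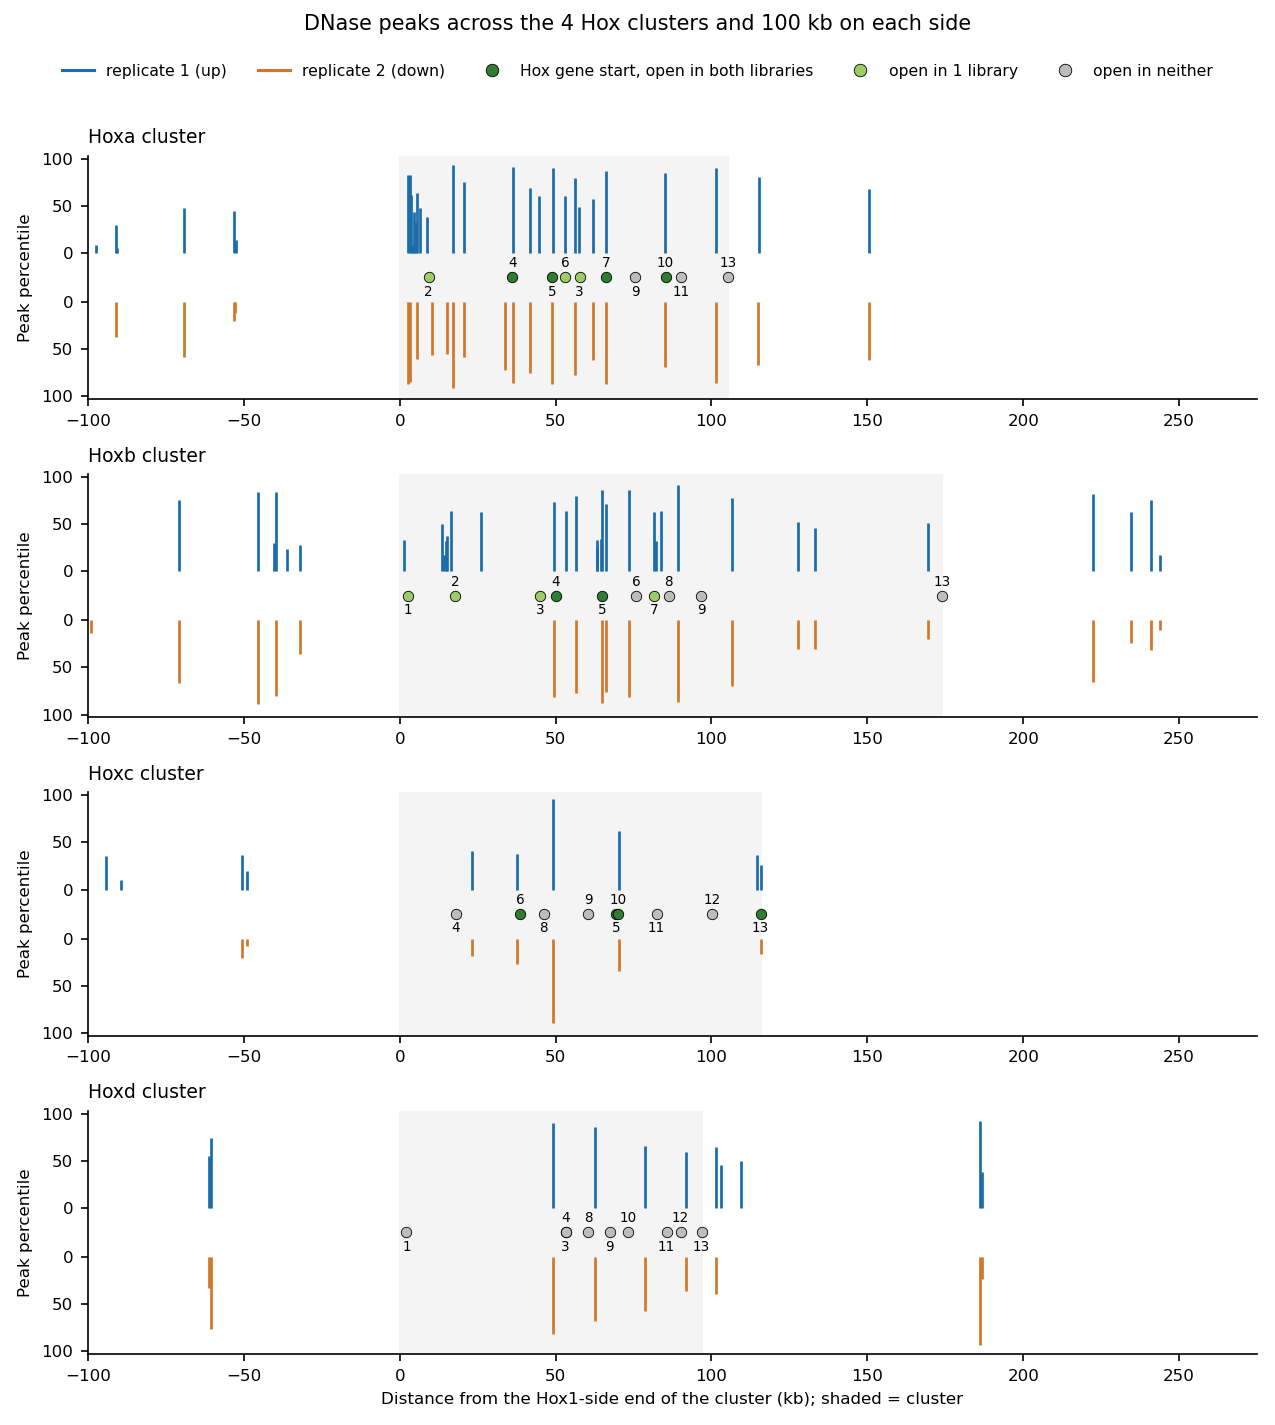
Peaks in each Hox cluster (shaded) and 100 kb on each side, by distance from the Hox1-side end; line height is the percentile, upwards for replicate 1 and downwards for replicate 2, and dots are the outermost gene starts with their paralog number, 1 gene not being marked. Hoxa holds peaks at both ends with an 18.5 kb gap over Hoxa9, replicate 2 has none over Hoxb1 to Hoxb3, and Hoxd has 4 per library, none of them within 1 kb of a Hoxd start.

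Several of the strongest sites in the clusters were not at Hox promoters. The highest was in the Hoxc cluster at position −2907 bp from the nearest Hoxc8 start, at the 95.7th and 89.7th percentiles, inside an intron of the long Hoxc5 transcript. It outranked every Hox promoter peak of both libraries. The next, in the Hoxa cluster within an untranslated region of a long Hoxa3 transcript and near the start of the noncoding gene Gm15050, was at the 93.1st and 91.4th percentiles. A site between Hoxb9 and Hoxb8, −2845 bp from the Hoxb8 start, was at the 91.6th and 86.5th. Hoxa13, closed itself, had a site 3582 bp downstream of its start at the 90.1st and 86.3rd percentiles, in the noncoding gene 9530018H14Rik. In Hoxd, sites stood 3912 bp downstream of a Hoxd4 start in the antisense gene Hoxd3os1 (90.3 and 81.2) and −2115 bp from Hoxd8 between genes (86.0 and 67.7). The remaining 4 of the 10 highest shared sites outside promoters were 2142 bp downstream of a Hoxb6 start (85.7 and 81.6), 1275 bp downstream of a Hoxa3 start (79.7 and 78.0), −6427 bp from Hoxb4 (79.9 and 77.0) and −9617 bp from Hoxb9 at the noncoding gene Gm53 (78.1 and 70.1). These were alike between the libraries to within 10 percentile points for 9 of the 10, with Hoxd8 the exception.

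Of these, 3 sites clear of annotated exons are shown with the Hoxa4 promoter peak, the highest-ranked Hox promoter of replicate 1, so that their footprints can be read in place. Bases in capitals lay in a footprint of both libraries. The sequence is that of the reference, NCBI RefSeq assembly GRCm38.p6 (mm10), read 5′ to 3′ on the plus strand for the sites and on the minus strand, that of the gene, for Hoxa4. Alleles of the hybrid were not examined.
Site near Hoxc8, chr15:102987521-102987700: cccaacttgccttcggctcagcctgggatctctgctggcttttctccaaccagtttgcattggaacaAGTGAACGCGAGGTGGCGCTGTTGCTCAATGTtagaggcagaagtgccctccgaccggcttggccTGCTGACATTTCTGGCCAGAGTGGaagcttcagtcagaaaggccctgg
Site near Hoxb8, chr11:96278901-96279060: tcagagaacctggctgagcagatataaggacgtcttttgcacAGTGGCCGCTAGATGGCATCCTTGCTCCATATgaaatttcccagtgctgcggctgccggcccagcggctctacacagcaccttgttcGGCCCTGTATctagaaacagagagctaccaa
Site near Hoxd8, chr2:74702321-74702500: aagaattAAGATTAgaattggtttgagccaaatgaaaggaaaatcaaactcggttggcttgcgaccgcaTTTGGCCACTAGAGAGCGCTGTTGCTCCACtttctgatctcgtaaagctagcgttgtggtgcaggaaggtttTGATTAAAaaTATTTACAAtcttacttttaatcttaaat
Hoxa4 promoter peak, chr6:52191841-52192040: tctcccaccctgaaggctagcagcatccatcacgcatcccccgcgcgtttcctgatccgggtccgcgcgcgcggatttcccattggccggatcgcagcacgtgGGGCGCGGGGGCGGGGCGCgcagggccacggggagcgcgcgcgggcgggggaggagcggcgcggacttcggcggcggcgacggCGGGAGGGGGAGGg
Each of the 3 sites had a footprint of 30 to 32 bases shared by both libraries, longer than the 19 bases of the longest in the Hoxa4 peak.

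The long footprints near Hoxb8 and Hoxd8 held sequence like the core of the motif of CTCF, the protein that marks boundaries in Hox clusters, while the one near Hoxc8 had no such core within 2 mismatches. An exact match to the 12-base core, on either strand within 75 bp of the peak centre, was in none of the 55 and 34 peaks inside the clusters, against 6.42% and 6.75% of all peaks. The match was then loosened, a choice made after the sequences had been seen. With up to 1 mismatch it was less frequent inside the clusters, in 10.9% and 14.7% of peaks, against 19.2% and 19.1% of all peaks. With up to 2 mismatches it was in 41.8% and 58.8% of peaks inside, against 37.8% and 37.4% of all peaks, so the direction depends on the limit. Over the whole peak, the match with up to 2 mismatches occurred in 21 of the 31 shared peaks inside the clusters in replicate 1 and 22 in replicate 2 (67.7% and 71.0%), against 44.1% and 43.5% of all shared peaks. Of the 31 shared peaks, 14 (45.2%) held such a core wholly inside a footprint of each library, against 20.01% and 20.02% of all shared peaks. A loose match is common, and a match is not evidence of a bound protein.

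The cores inside footprints lay both at open Hox promoters and at sites outside Hox promoter windows. Of the examples outside, those near Hoxb8 and Hoxd8 lay between genes and the others in introns or noncoding exons. Examples are printed on the strand of the core, with the core in capitals, 8 bases on each side, and the coordinates of the capitals.
Hoxa5 promoter, chr6:52204659-52204670, minus strand: cccagtctCCAGCGGGTGGCgctcgagt
Hoxa7 promoter, chr6:52221809-52221820, minus strand: agaaaattCCAGGAGATGGCagtgtggc
Hoxa10 promoter, chr6:52240541-52240552, minus strand: cgcagccgCCACGAGATGGCgcactccc
Hoxb5 promoter, chr11:96303245-96303256, plus strand: gtcaatcgCCGGGAGGTGGCgcgctctg
Site near Hoxa13, chr6:52257121-52257132, plus strand: gcttgtcaACACGAGGTGGCgcccttga
Site near Hoxb8, chr11:96278948-96278959, plus strand: cacagtggCCGCTAGATGGCatccttgc
Site near Hoxb6, chr11:96294698-96294709, minus strand: ccgaacggACGGTAGATGGCagcaaact
Site near Hoxb9, chr11:96261753-96261764, minus strand: gcgaccgaCCTCTAGGCGGCgccctggc
Site near Hoxd4, chr2:74715921-74715932, plus strand: agctttgtCCAGGAGGAGGCgctgtagg
Site near Hoxd8, chr2:74702395-74702406, plus strand: gcatttggCCACTAGAGAGCgctgttgc
Site near Hoxd11, chr2:74686480-74686491, plus strand: ttctacagCCACACGAGGGCgcgctcat
The cores at Hoxa5, Hoxa7, Hoxa10, Hoxb8 and Hoxd8 differed from the motif at 1 position and the other 6 at 2. Among the 26 sites of a single library inside the clusters, 4 held a core with up to 2 mismatches. The matching share over all single-library peaks was not computed, so this count is not a result about the clusters. All 3 of the Hoxd sites shown lay in the cluster with no open Hox gene. The one near Hoxd4 lay within 1 kb of the start of Hoxd3os1, an antisense gene open in both libraries.

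A second sequence feature recurred at several open promoters. A CCAAT box read as ATTGG, followed 5 to 25 bases later by the E box CACGTG, occurred in promoter peaks of Hoxa4, Hoxa7, Hoxb4 and Hoxb7, which include paralog groups 4 and 7 in both clusters. CCAAT boxes bind NF-Y and the E box binds factors such as USF and MYC. The pair, searched on both strands within 75 bp of the peak centre and chosen after the sequences had been seen, was in 5 of 18 open Hox genes of replicate 1 and 4 of 11 of replicate 2 (27.8% and 36.4%). It was in 0.698% and 0.753% of all open protein-coding genes. Inside the clusters but outside Hox promoters, the pair was in 1 of 32 peaks of replicate 1 and 1 of 22 of replicate 2. That was the Hoxa site near Gm15050, where its bases lay in footprints of both libraries. Stretches of 4 genes are printed in the direction of the gene, with both boxes in capitals.
Hoxa4, chr6:52191938-52191959, minus strand, from −206 bp: ATTGGccggatcgcagCACGTG
Hoxa7, chr6:52217535-52217567, minus strand, from −62 bp of an inner start: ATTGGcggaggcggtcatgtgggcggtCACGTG
Hoxb4, chr11:96318637-96318657, plus strand, 370 bp past the start: ATTGGctcggaggatCACGTG
Hoxb7, chr11:96286569-96286591, plus strand, from −54 bp: ATTGGccgaggggatatCACGTG
Each of these stretches had the CCAAT box first in the direction of the gene, and the gap between the boxes was 10 to 12 bases in 3 of the 4 and 22 in Hoxa7. All but the Hoxb7 stretch lay in peaks of both libraries. No box of these 4 stretches lay wholly inside a footprint of a library where the gene was open.

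Sites for the Hox proteins themselves were also searched. The PBX-HOX site TGATNNAT was in promoter peaks of 3 of 18 open Hox genes in replicate 1 and 2 of 11 in replicate 2, Hoxa4 in both and Hoxb2 in replicate 1 among them. That is 16.7% and 18.2%, beside 2.95% and 2.58% of all open genes. Hoxa4 held the form TGATGGAT. None of the matches lay wholly inside a footprint. The homeodomain site TAATTA and the direct repeat bound by retinoic acid receptors were in no peak inside the clusters, and they were in 1.32% and 0.0528% of all peaks of replicate 1. The MEIS site TGACAG was in 3 of 55 and 2 of 34 peaks (5.45% and 5.88%), against 11.8% and 12.1% of all peaks. The GC box GGGCGG was in 27.3% and 32.4% of peaks inside, against 19.6% and 20.8% of all peaks.

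The genes whose products work with or on Hox genes were read against the 63.6% of all protein-coding genes, and 93.7% of CpG-rich ones, that were open in both libraries; lists of this size near those shares are not a result about them. All 9 Hox cofactor genes were open in both libraries, led by Pknox1 at the 98.4th and 99.2nd percentiles and Pbx3 at the 97.8th and 95.7th. All 18 Polycomb genes were open in both, led by Cbx8 (99.5 and 99.6), Jarid2 (99.6 and 99.3) and Phf19 (98.6 and 99.2). Of 9 Trithorax and demethylase genes 8 were open in both, with Kmt2a at 98.98 and 96.3, Kdm6a at 97.2 and 97.9, and Wdr5 at 98.6 and 94.3, while Kdm6b had no peak. Of 12 upstream regulators and boundary factors 9 were open in both, with Maz at 98.95 and 99.7, Rad21 at 97.2 and 97.1, and Rarg at 96.7 and 97.4. The 3 without a peak were Cdx1, Cdx2 and Cdx4, which activate central and posterior Hox genes in the tail end of the embryo. Among 10 ParaHox and Hox-linked homeobox genes, replicate 1 had 5 open and replicate 2 had 3. The 3 open in both were Gsx1 (64.4 and 41.0), Gbx2 (41.1 and 37.9) and Meox2 (29.0 and 41.5). Evx1 and Evx2, which lie beside the Hoxa and Hoxd clusters, were closed, as was Gsx2.

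In the flanks, the 5 highest shared sites were all beside Hoxd or Hoxb. The start of Lnpk, beyond Hoxd13, had a peak at the 91.9th and 93.1st percentiles, and the start of Mtx2, beyond Hoxd1, one at the 74.4th and 76.9th. Beyond Hoxb1, sites between genes 47423 and 41543 bp past its start were at 83.6 and 89.3, and at 84.1 and 80.0. Beyond Hoxb13, a site in an intron of Ttll6, −48436 bp from the Hoxb13 start, was at 82.4 and 65.4.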

How the data were processed

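DNase-seq peaks, footprints and cut-rate FDR intervals of 2 lung libraries were used as deposited. Per the listings deposited with the files, the assembly is mm10 and each library was called by itself. Which aligner and callers were run, and in which version, was not given in the sources used here. Each score in the deposited peak lists is a signal whose scaling the files do not state, and it was used only as a rank within its library. The deposited FDR files hold values used as false discovery rates, listed up to 0.05, and the footprint files a constant p-value threshold of 0.01. Of the 2 peak lists of each library the one with fewer lines was used. GRCm38.p6 sequence and GENCODE M21 share mm10 coordinates. Peaks were counted inside a region by their centre, and partners and footprints by an overlap of at least 1 bp. Each result is a mean or count over 2 libraries with no test. All 39 members entered the counts, with values in full for those open in both libraries; 1 member and some listed genes are not reported here. The 10 and 5 highest shared sites inside and in the flanks were named, and in each gene list the 3 highest genes and up to 3 without a peak in alphabetical order. The members and lists were chosen with earlier results of these data known. Alternatives were other windows, starts, peak lists, score cut-offs, flanks and overlaps, and leaving out each library. The interval code was tested on simulated data. Python 3.11.15, numpy 2.4.6, pandas 2.3.3, pysam 0.24.0 and matplotlib 3.10.9 were used.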

Additional observations from a re-analysis of the deposited data

How the results depend on the processing

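Of 67 alternatives over 11 results, 15 moved a count by over 1.5 times or a value by over 1 SD of the 2 libraries. Whether an alternative reversed the direction of a result was not scored. Leaving out 1 of 2 libraries moves a mean by under 1 SD by construction and says nothing of stability, as with the share of peaks inside that had a partner, 56.4% to 91.2%. Open in both libraries were 18 Hox genes with the longer peak lists and 7 with the higher-scoring 50% of peaks, and 11 to 18 when each library was left out. The share of Hox genes stayed below that of all genes in each of the 7 promoter settings, from 17.9% against 56.1% to 46.2% against 67.5%. Anterior genes open in both were 3 with windows of 2500 bp and 5 with the longer lists, and 1 to 6 leaving out each library. Posterior genes were 1 with the higher-scoring 50%. Peaks per 100 kb inside were 15.6 with the longer lists. In the flanks they were 4.81 with the longer lists, 1.31 with the higher-scoring 50% and 4.94 with flanks of 200 kb. Promoter bases of Hox genes were 6.26% at any listed FDR and 5.11% in windows of 500 bp. The CTCF core, absent from peaks inside as an exact match, was in 12.8% with up to 1 mismatch (below all peaks in each library) and 50.3% with up to 2 (above them), both chosen after seeing the data. The looser lists and windows admit more peaks by construction, and the cause of the other changes was not tested. No paired analysis was possible because the 2 libraries form a single group. Unknown depth limits any statement on weak promoters such as those of Hoxd.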

Other observations

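The clusters also hold 46 annotated genes other than the Hox genes, and 15 of them were open in replicate 1, 12 in replicate 2 and 11 in both. The share of such genes open over the genome was not computed, so these counts are not a result about them. Some rest on shared peaks. Gm28308 and Gm11536 were open in replicate 1 through Hox promoter peaks, and Gm27861, Gm27868 and Gm27477 shared 1 peak in replicate 2. None of the 7 miRNA genes inside, among them Mir10a, Mir10b, Mir196b and Mir615, had a peak within 1 kb of its annotated start in either library. Hoxd3os1, in the cluster with no open Hox gene, was open at the 90.3rd and 81.2nd percentiles, and Gm15050, in Hoxa, at the 93.1st and 91.4th. Hoxb5os and Hoxb3os were open in replicate 1 only, at the 33.3rd and 50.2nd percentiles. In the flanks Halr1, a noncoding gene beyond the anterior end of the Hoxa cluster, was open at the 44.6th and 20.2nd percentiles, and Skap1, beyond Hoxb1, was closed in both libraries.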
